A study of Mus musculus with 6 samples.

Results

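The genes described here encode the complexes that keep developmental and germline genes silent in embryonic stem (ES) cells: Polycomb repressive complexes PRC2 and PRC1, the enzymes that methylate H3K9, the HP1 proteins that bind this mark, and the corepressor KAP1. They come from a list of 39 subunit genes, of which 37 were measured by a probe set with exactly 1 gene symbol, among 19938 genes so measured. For a gene with several probe sets, the one with the highest mean over the 6 arrays was used. Cbx6 and Suv39h1 were not analysed here, because no probe set carried either symbol alone. The series compared transcripts of mouse ES cells with and without vitamin C. In the vitamin C group, Oct4-GiP ES cells, a reporter line, received L-ascorbic acid 2-phosphate at 200 μg/ml for 72 hours, and the untreated group did not. Both groups grew on 0.1% gelatin in N2B27 medium with LIF at 1000 U/ml, the MEK inhibitor PD0325901 at 1 μM and the GSK3 inhibitor CHIR99021 at 3 μM. There were 3 vitamin C arrays and 3 untreated arrays, called biological triplicates by the submitters, all of this 1 line. What separated the cultures of a triplicate is not stated, so the p-values measure the spread between these samples.

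PRC2 places methyl groups on H3K27 through EZH1 or EZH2, held together by EED and SUZ12. PRC1 complexes ubiquitinate histone H2A through RING1 or RNF2, and the PCGF protein bound to these enzymes sets which version is formed. The version PRC1.6, built around PCGF6, MGA, E2F6 and L3MBTL2, is known for keeping germline genes silent in mouse ES cells, as are the H3K9 methyltransferases SETDB1 and G9a and DNA methylation. Many histone demethylases and the TET enzymes use iron and 2-oxoglutarate, and vitamin C is known to help such enzymes.

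Values are log2 signals of single probe sets. A difference is the mean of the vitamin C arrays minus the mean of the untreated arrays on that scale. A gene was called changed at an adjusted p under 0.05 in limma, with the adjustment over all 19938 genes. Of all genes 5.75% rose and 7.40% fell. The first principal component, with 57.15% of the variance, separated the groups. Of 10 ES-cell markers 3 rose (Nanog, Zfp42 and Utf1, by 0.29, 0.30 and 0.29) and none fell, and their mean log2 signal ranged from 10.70 to 10.72 on the vitamin C arrays and from 10.60 to 10.63 on the untreated arrays. Pou5f1 (Oct4), which did not pass, was at 11.14 ± 0.046 with vitamin C and 11.26 ± 0.022 untreated (SD, n = 3 each). Of 10 fibroblast markers 8 rose and 1 (Pdgfrb) fell, and their mean log2 signal ranged from 6.08 to 6.17 on the vitamin C arrays and from 5.37 to 5.45 on the untreated arrays. Col1a1 averaged 7.05 with vitamin C and 6.50 untreated, and Lum, at 3.68 with vitamin C and 2.96 untreated, lay below the lower quartile of the arrays. Of 8 primitive endoderm markers 3 rose (Dab2 by 0.89, with Gata6 and Col4a1), of 6 neuroectoderm markers 2 rose (Neurod1 by 0.70, and Tubb3), and of 8 trophectoderm markers Gata3 rose and Krt8 (-0.58) and Krt18 fell. None of 4 mesoderm markers passed. The part of such cells in the results was not tested. In bulk samples fewer cells of a type and less RNA per cell cannot be told apart.

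With vitamin C, 3 of the repressor genes fell by similar amounts on the log2 scale: Ezh1, an H3K27 methyltransferase gene, by 0.76, Pcgf1, of the PRC1.1 complex, by 0.75, and Mga, the scaffold of PRC1.6, by 0.74. L3mbtl2, another PRC1.6 gene, fell by 0.31. The rises were smaller: the PRC2 genes Aebp2 (0.44), Suz12 (0.23) and Mtf2 (0.23), and Atf7ip (0.22), a partner of SETDB1. In all, 4 of the 37 genes rose, where 5.75% of all genes rose, and 4 fell, where 7.40% of all genes fell. Together 8 (21.6%) were called, against 13.2% of all genes. The 37 genes are bright ones, the dimmest being Phf19 at 5.62 with vitamin C and 5.67 untreated, and of the 11117 genes with a mean signal at or above that of Phf19, 19.4% were called. The share among the repressor genes was thus near that of genes above this lower bound. The bound is set by Phf19 alone, so those genes are not matched in brightness to the other repressor genes. The median difference of the 37 genes was 0.07, against 0.01 for all genes, and the median size of a difference, sign aside, was 0.14 against 0.13.

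**Figure D1:**
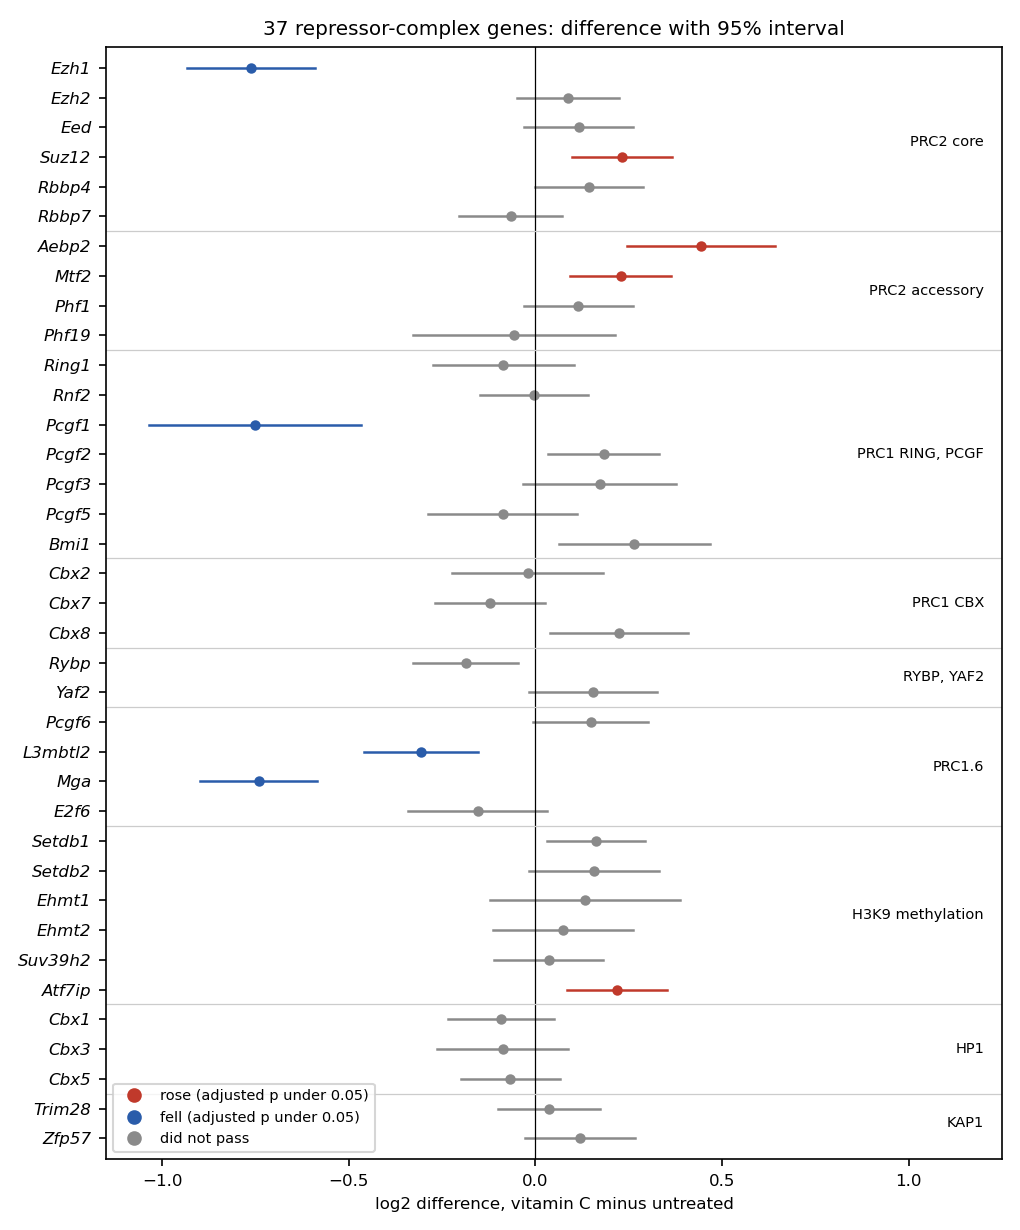
Log2 difference, vitamin C minus untreated, of the 37 measured genes, grouped by complex; points are limma estimates from 3 arrays a group, lines are 95% confidence intervals, and colour gives the call. Ezh1, Pcgf1 and Mga stand on the left at -0.76 to -0.74, and the 29 genes that did not pass lie between -0.19 (Rybp) and 0.26 (Bmi1).

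The vitamin C and untreated arrays did not overlap for 26 of the 37 genes (70.3%), with vitamin C above for 16 and below for 10. Over all genes the share was 35.0%, made up of 16.8% above and 18.2% below, and over the genes at least as bright as Phf19 it was 48.0%. For the 29 genes that did not pass, the 95% confidence intervals lay between -0.34 (the lower bound of E2f6) and 0.47 (the upper bound of Bmi1).

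Among the PRC2 core genes, Ezh1 fell and Suz12 rose. Ezh1, the alternative catalytic subunit to EZH2, gave log2 signals of 7.17, 7.19 and 7.33 on the vitamin C arrays and 7.92, 7.99 and 8.07 on the untreated arrays. Every vitamin C value was lower than every untreated one. The fall was 1.70-fold (log2 difference -0.76 ± 0.07 SE, adjusted p = 0.00124), the 128th most negative of all genes, and the adjusted p was 0.00459 to 0.00781 with any 1 array left out. Ezh2, the main H3K27 methyltransferase of dividing cells, averaged 9.45 ± 0.043 with vitamin C and 9.36 ± 0.018 untreated (SD, n = 3 each), a difference of 0.09 ± 0.06 (SE, adjusted p = 0.368) that did not pass. The response of Ezh1 minus that of Ezh2 within arrays was -0.85 ± 0.06 (SE), with a two-sided exact permutation p of 0.10, the smallest that 3 against 3 arrays allow.

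Suz12, the scaffold of PRC2, gave 10.63, 10.63 and 10.58 on the vitamin C arrays and 10.38, 10.40 and 10.36 on the untreated arrays. The groups were narrow and did not overlap, and the rise was 0.23 ± 0.06 (SE, adjusted p = 0.0392). The call was lost without any 1 of the 6 arrays (adjusted p = 0.0748 to 0.113). Eed, whose product reads H3K27me3, differed by 0.12 ± 0.06 (SE) and did not pass, and a dimmer second probe set differed by -0.02 ± 0.11 (SE). Of the histone chaperone genes, Rbbp7 differed by -0.07 ± 0.06 (SE), and by -0.08 ± 0.06 on its other probe set. Rbbp4 gave 8.97, 9.01 and 9.05 on the vitamin C arrays and 8.86, 8.82 and 8.92 on the untreated arrays. Its groups did not overlap, but the difference of 0.14 ± 0.06 (SE, adjusted p = 0.174) did not pass.

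Accessory subunits bring PRC2 to its sites, and 2 of the 4 genes rose, where 5.75% of all genes did. These genes are too few to read a share from. Aebp2, of the PRC2.2 form, gave 8.16, 8.25 and 8.18 on the vitamin C arrays and 7.81, 7.86 and 7.59 on the untreated arrays. Untreated replicate 3 was the lowest, and the groups did not overlap. The rise of 0.44 ± 0.09 (SE, adjusted p = 0.0159) missed the threshold without vitamin C replicate 2 (adjusted p = 0.0532) and without moderation of the spread (adjusted p = 0.0688). Mtf2, a Polycomb-like protein gene of the PRC2.1 form, gave 10.71, 10.72 and 10.76 on the vitamin C arrays and 10.53, 10.51 and 10.47 on the untreated arrays. Its rise of 0.23 ± 0.06 (SE, adjusted p = 0.0420) was lost without any 1 of the arrays (adjusted p = 0.0861 to 0.122). The other Polycomb-like genes, Phf1 (0.11 ± 0.06) and Phf19 (-0.06 ± 0.12, log2 difference ± SE), did not pass.

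**Figure D2:**
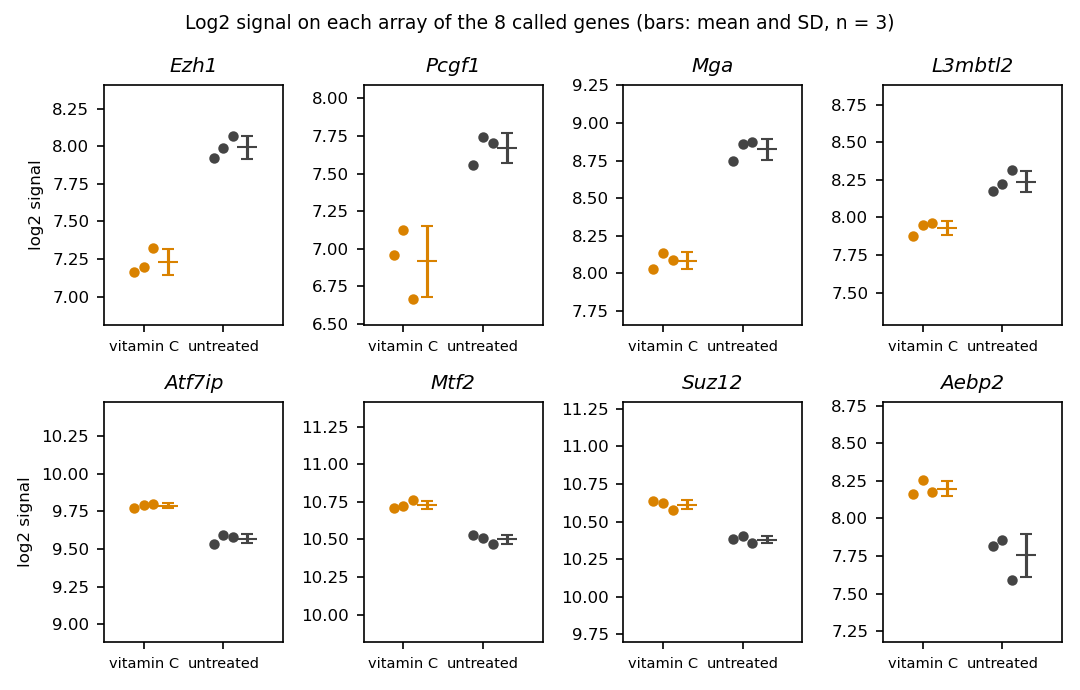
Log2 signal of the 8 called genes on each array, vitamin C on the left and untreated on the right of each panel; points are arrays, and the bars give the mean and SD (n = 3). In no panel do the groups overlap.

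Of the PRC1 enzyme genes neither passed: Ring1 differed by -0.09 ± 0.08 and Rnf2, the main H2A ubiquitin ligase of ES cells, by -0.0037 ± 0.062 (SE). Of the PCGF genes outside PRC1.6, Pcgf1 fell and the other 4 did not pass. Pcgf1 gave 6.96, 7.13 and 6.66 on the vitamin C arrays and 7.55, 7.74 and 7.71 on the untreated arrays. The vitamin C values were more scattered (SD 0.23) than the untreated ones (SD 0.10), but all lay below them. The fall was 1.68-fold (-0.75 ± 0.12 SE on the log2 scale, adjusted p = 0.00869), and without moderation of the spread the adjusted p was 0.0672. PCGF1 works in PRC1.1 with KDM2B and BCOR, whose genes differed by 0.02 ± 0.08 and 0.07 ± 0.06 (SE) and did not pass.

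Pcgf2 and Bmi1 encode the PCGF proteins of canonical PRC1. Pcgf2 gave 9.43, 9.47 and 9.34 on the vitamin C arrays and 9.20, 9.26 and 9.23 on the untreated arrays, a difference of 0.18 ± 0.06 (SE, adjusted p = 0.105). Bmi1 gave 6.82, 6.98 and 6.86 on the vitamin C arrays and 6.76, 6.63 and 6.48 on the untreated arrays, a difference of 0.26 ± 0.09 (SE, adjusted p = 0.0897). Neither passed, although the arrays of the groups did not overlap for either gene. Pcgf3 (0.17 ± 0.09) and Pcgf5 (-0.09 ± 0.09, SE), which define a further pair of PRC1 versions, did not pass. Within arrays, the response of Pcgf1 lay below that of each of the other 5 PCGF genes, by -0.66 (against Pcgf5) to -1.02 (against Bmi1) as a log2 difference, each with the smallest possible exact permutation p of 0.10. Over the 30 paralog pairs compared within families, the adjusted exact p was 0.231 at best.

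CBX proteins let canonical PRC1 read H3K27me3. Cbx7, the main one in ES cells, differed by -0.12 ± 0.06 and Cbx2 by -0.02 ± 0.09 (SE). Cbx8 gave 6.50, 6.38 and 6.33 on the vitamin C arrays and 6.09, 6.29 and 6.15 on the untreated arrays. These groups did not overlap, and the difference of 0.22 ± 0.08 (SE, adjusted p = 0.108) did not pass. RYBP and YAF2 replace the CBX proteins in variant PRC1. Rybp gave 10.18, 10.21 and 10.17 on the vitamin C arrays and 10.42, 10.38 and 10.31 on the untreated arrays, a difference of -0.19 ± 0.06 (SE, adjusted p = 0.0870). A second probe set of Rybp differed by -0.09 ± 0.10 (SE), and its groups overlapped. Yaf2 differed by 0.15 ± 0.07 (SE, adjusted p = 0.215).

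Of the 4 repressor genes grouped here under PRC1.6, 2 (Mga and L3mbtl2) fell, where 7.40% of all genes did. These 4 genes are too few to read a share from. Max, Tfdp1 and Wdr5, grouped below as partners of the complex, rose. MGA dimerises with MAX and is the scaffold of the complex. Mga gave 8.03, 8.14 and 8.09 on the vitamin C arrays and 8.75, 8.86 and 8.88 on the untreated arrays. The vitamin C values all lay below the untreated ones. The fall was 1.67-fold (-0.74 ± 0.07 SE on the log2 scale, adjusted p = 0.000942), and the adjusted p was 0.00428 to 0.00668 with any 1 array left out. L3mbtl2, a chromatin-binding subunit, gave 7.88, 7.95 and 7.96 on the vitamin C arrays and 8.17, 8.23 and 8.31 on the untreated arrays. Its fall (-0.31 ± 0.07 SE, adjusted p = 0.0236) was lost without any 1 array other than untreated replicate 1 (adjusted p up to 0.0776). E2f6, the DNA-binding repressor gene, differed by -0.15 ± 0.08 (SE, adjusted p = 0.246). Pcgf6, which defines the complex, differed by 0.15 ± 0.07 (SE, adjusted p = 0.186), and neither passed.

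Of 6 partner genes of PRC1.6, 3 rose and none fell, where 5.75% of all genes rose. Again the genes are too few to read a share from. Tfdp1, the DP partner of E2F proteins, gave 9.76, 9.83 and 9.82 on the vitamin C arrays and 9.31, 9.32 and 9.26 on the untreated arrays, a rise of 0.51 ± 0.06 (SE, adjusted p = 0.00248). Wdr5, which serves several chromatin complexes, rose by 0.36 ± 0.06 (SE, adjusted p = 0.00923). Max, the dimer partner of both MGA and MYC, gave 9.62, 9.76 and 9.63 on the vitamin C arrays and 9.33, 9.29 and 9.34 on the untreated arrays. Its rise of 0.35 ± 0.07 (SE, adjusted p = 0.0147) missed the threshold without untreated replicate 2 (adjusted p = 0.0527). Tfdp2, Hdac1 and Hdac2 differed by 0.18, -0.06 and 0.05 and did not pass.

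**Figure D3:**
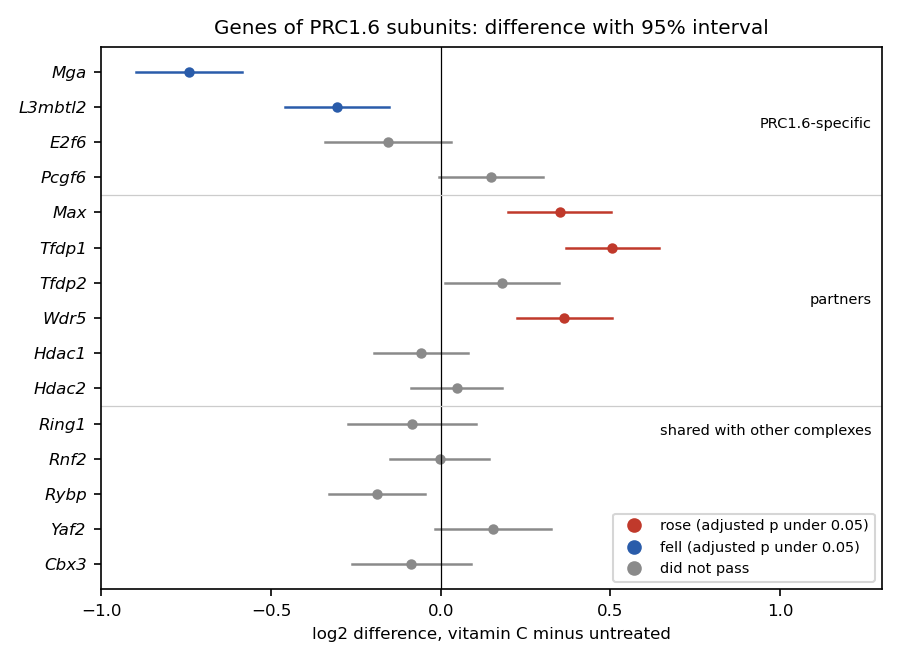
Log2 difference, vitamin C minus untreated, of the genes of PRC1.6 and its partners with 95% confidence intervals (limma, 3 arrays a group). Mga at -0.74 and L3mbtl2 at -0.31 lie left of 0, while Max, Wdr5 and Tfdp1 lie at 0.35 to 0.51.

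Promoter sequences are shown for Mga and Ezh1, whose calls held under every alternative, and for germline genes whose promoters hold the letters that MGA with MAX, and E2F6, are known to bind. Pcgf1, Cbx2, Rybp and Yaf2 were not matched in the promoter table. The sequences come from RefSeq (GRCm38.p6) and run 5′ to 3′ on the gene's strand, from 250 bases before to 50 bases after the annotated start. Capitals mark the E-box CACGTG, which reads the same on both strands, and the E2F core TCCCGC or its reverse complement GCGGGA. An E-box and an E2F core can share 1 letter at their edges. The Mga window lies at chr2:119896978-119897277 (plus strand) and the Ezh1 window at chr11:101226414-101226713 (minus strand). Those of Slc25a31 and Mael lie at chr3:40708621-40708920 (plus strand) and chr1:166238695-166238994 (minus strand). That of Sycp1 lies at chr3:102936051-102936350 (minus strand), that of Stag3 at chr5:138280259-138280558 (plus strand) and that of Ddx4 at chr13:112652261-112652560 (minus strand).
Mga: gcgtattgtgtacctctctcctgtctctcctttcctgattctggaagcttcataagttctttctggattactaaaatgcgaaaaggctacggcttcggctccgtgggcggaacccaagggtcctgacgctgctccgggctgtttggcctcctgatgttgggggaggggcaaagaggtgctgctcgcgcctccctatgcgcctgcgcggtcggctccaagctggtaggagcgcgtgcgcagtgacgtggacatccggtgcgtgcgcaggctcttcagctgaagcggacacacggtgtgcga
Ezh1: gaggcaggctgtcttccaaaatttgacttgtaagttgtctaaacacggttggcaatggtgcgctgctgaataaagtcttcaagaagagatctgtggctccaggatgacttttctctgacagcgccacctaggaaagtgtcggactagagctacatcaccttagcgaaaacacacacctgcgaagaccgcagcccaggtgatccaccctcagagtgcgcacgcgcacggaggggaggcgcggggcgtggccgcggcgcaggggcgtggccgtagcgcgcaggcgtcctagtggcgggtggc
Slc25a31: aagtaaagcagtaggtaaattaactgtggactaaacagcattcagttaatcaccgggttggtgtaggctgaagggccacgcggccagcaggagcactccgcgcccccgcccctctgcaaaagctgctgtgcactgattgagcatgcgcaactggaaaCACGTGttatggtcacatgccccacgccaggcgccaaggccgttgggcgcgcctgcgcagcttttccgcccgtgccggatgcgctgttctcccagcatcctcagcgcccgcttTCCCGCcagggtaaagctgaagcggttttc
Mael: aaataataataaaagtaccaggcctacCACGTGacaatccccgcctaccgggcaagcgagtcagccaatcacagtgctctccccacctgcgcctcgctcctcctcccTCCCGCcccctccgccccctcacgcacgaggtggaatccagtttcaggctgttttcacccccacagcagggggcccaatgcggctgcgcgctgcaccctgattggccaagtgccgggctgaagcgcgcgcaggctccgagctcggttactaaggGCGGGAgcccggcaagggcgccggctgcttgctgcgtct
Sycp1: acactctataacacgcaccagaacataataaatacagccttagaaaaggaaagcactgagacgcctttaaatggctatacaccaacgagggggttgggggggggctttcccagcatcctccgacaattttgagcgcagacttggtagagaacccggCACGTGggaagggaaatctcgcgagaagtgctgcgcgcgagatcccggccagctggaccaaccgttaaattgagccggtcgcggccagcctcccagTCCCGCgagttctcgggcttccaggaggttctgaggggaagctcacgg
Stag3: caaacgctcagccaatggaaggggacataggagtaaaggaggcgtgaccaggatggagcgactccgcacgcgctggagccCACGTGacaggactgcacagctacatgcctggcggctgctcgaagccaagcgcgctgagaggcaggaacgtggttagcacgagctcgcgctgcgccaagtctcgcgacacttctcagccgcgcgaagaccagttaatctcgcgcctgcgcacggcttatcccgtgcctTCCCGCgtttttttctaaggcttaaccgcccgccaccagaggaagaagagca
Ddx4: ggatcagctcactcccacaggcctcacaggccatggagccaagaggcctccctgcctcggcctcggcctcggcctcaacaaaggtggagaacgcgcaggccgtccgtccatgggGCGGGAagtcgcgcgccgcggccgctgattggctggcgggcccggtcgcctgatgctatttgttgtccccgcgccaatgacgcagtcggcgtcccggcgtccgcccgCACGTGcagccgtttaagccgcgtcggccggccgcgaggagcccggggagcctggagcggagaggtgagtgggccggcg
Neither motif is in the windows of Mga and Ezh1. The 5 germline windows were chosen because they hold both, so this contrast was set in advance. Of the 19 germline genes listed below, 11 hold the E2F core (57.9%), 10 the E-box (52.6%) and 7 both (36.8%). They were listed as known targets of PRC1.6 or E2F6, so these shares follow in part from the choice of genes and are not a finding. Over all 32851 promoters listed, each counted singly, 20.0% hold the E2F core, 7.2% the E-box and 2.0% both. Over the 15614 measured genes with a promoter the shares are 30.5%, 9.5% and 3.9%. There and in the gene lists, a gene counts if any of its promoters holds the letters. For a gene with several promoters, the motifs can thus come from different windows. Of the 33 repressor genes with a promoter, 15 hold the E2F core (45.5%), 6 the E-box (18.2%) and 4 both (12.1%). Each motif contains a CpG, a C followed by a G. The median CpG count per window was 24 for the repressor genes, 22 for the germline genes and 15 for the measured genes with a promoter. The part of base composition in these shares was not tested. A match describes letters in this window and does not show a binding site.

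A list of 19 germline genes, given as targets of PRC1.6, was compiled with earlier results of these data known, so its direction is not independent evidence. Of these genes 13 rose, 1 fell and 5 did not pass, with a median log2 difference of 0.74 against 0.01 for all genes. Slc25a31, a testis ADP/ATP carrier gene, gave 6.74, 6.72 and 6.78 on the vitamin C arrays and 5.66, 5.51 and 5.80 on the untreated arrays, a rise of 1.09 ± 0.08 (SE, adjusted p = 0.000576). The piRNA pathway gene Mael rose by 0.74 ± 0.08 (SE, adjusted p = 0.00186), and the synaptonemal complex gene Sycp1 rose 2.14-fold (adjusted p = 0.000888). Stag3, a meiotic cohesin gene, fell, with 7.34, 7.49 and 7.40 on the vitamin C arrays and 8.17, 8.09 and 8.09 on the untreated arrays (-0.71 ± 0.07 SE, adjusted p = 0.00106). Ddx4, a germ-cell helicase gene, differed by 0.13 ± 0.10 (SE) and did not pass.

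Of the 7 germline genes with both motifs 5 rose, 1 fell and 1 did not pass, and of the 12 others 8 rose and 4 did not pass. Over all genes 5.75% rose and 7.40% fell. Hormad1 and Sycp3, meiotic chromosome axis genes with both motifs, rose by 0.74 ± 0.11 and 0.43 ± 0.07 (SE). Without moderation of the spread the adjusted p of Hormad1 was 0.0508. The rises among the others included Dazl, an RNA-binding regulator of germ cells (2.21 ± 0.08), the tubulin genes Tuba3b (2.23 ± 0.11) and Tuba3a (0.84 ± 0.06), Tex101 (0.92 ± 0.10), Meioc (0.99 ± 0.09) and the meiotic cohesin gene Smc1b (0.67 ± 0.08, all log2 difference ± SE). Taf7l, of the TFIID family, rose 3.25-fold, and Stra8, of meiotic entry, 2.14-fold. Tuba3a and Tuba3b are close copies, so their separate values are uncertain. Tdrkh, Tdrd1, Stk31 and Zcwpw1 differed by -0.22, -0.03, -0.04 and -0.17.

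In the H3K9 methyltransferase group, which includes the SETDB1 partner gene Atf7ip, all 6 measured genes had differences above 0, and 1 passed. Of all 19938 genes, 10521 lay above 0 and 13.2% were called. These 6 genes are too few to read a share from. No methyltransferase gene passed. The gene that did, Atf7ip, whose product keeps SETDB1 in the nucleus, gave 9.77, 9.79 and 9.80 on the vitamin C arrays and 9.53, 9.59 and 9.58 on the untreated arrays. The rise of 0.22 ± 0.06 (SE, adjusted p = 0.0467) was lost without any 1 of the arrays (adjusted p = 0.0975 to 0.126). The call was also lost with array medians centred, with quantile normalization and with a replicate block. Averaging the probe sets of a gene or testing all probe sets lost it too, so it held in 5 of 16 alternatives. A second, dimmer probe set of Atf7ip differed by -0.11 ± 0.12 (SE) with overlapping groups. Setdb1, the enzyme recruited by KAP1, gave 8.38, 8.35 and 8.41 on the vitamin C arrays and 8.22, 8.21 and 8.22 on the untreated arrays, a difference of 0.16 ± 0.06 (SE, adjusted p = 0.106) that did not pass. Setdb2 differed by 0.16 ± 0.08, Ehmt1 (GLP) by 0.13 ± 0.11, Ehmt2 (G9a) by 0.07 ± 0.08 and Suv39h2, of pericentromeric chromatin, by 0.04 ± 0.06 (SE).

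The 3 HP1 genes had differences below 0, and none passed: Cbx1 (HP1β) at -0.09 ± 0.06, Cbx3 (HP1γ) at -0.09 ± 0.08 and Cbx5 (HP1α) at -0.07 ± 0.06 (SE). Of all 19938 genes, 9417 lay below 0. Cbx3 had 7 probe sets, with differences between -0.11 and -0.04, and 2 of them held identical values. Their probes may read close copies of Cbx3, so its value is uncertain. Trim28, which encodes KAP1, averaged 10.12 ± 0.031 with vitamin C and 10.08 ± 0.030 untreated (SD, n = 3 each). Zfp57, a KRAB zinc finger gene that guards imprinted methylation with KAP1, gave 10.86, 10.90 and 10.80 on the vitamin C arrays and 10.75, 10.68 and 10.78 on the untreated arrays, a difference of 0.12 ± 0.06 (SE, adjusted p = 0.263).

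Among 50 measured partner genes of all these complexes, none of them in the member list, 8 rose and 2 fell. This share of 20.0% stands beside 13.2% of all genes and 19.4% of the genes at least as bright as Phf19, and is near the second. Mecom (4.37 with vitamin C, 4.69 untreated) and Asxl3 (5.04 and 4.81) are dimmer than Phf19. The second share has only a lower bound, so it is not matched to the brightness of the partners. The median difference of the partners was 0.08. Zfp809, a KRAB zinc finger gene that targets KAP1 to retroviral sequence, gave 9.54, 9.45 and 9.58 on the vitamin C arrays and 8.82, 8.89 and 8.88 on the untreated arrays (0.66 ± 0.06 SE, adjusted p = 0.00127). Resf1, a retroelement silencing factor gene, rose by 0.44 ± 0.06 (SE, adjusted p = 0.00559), and Tasor, of the HUSH silencing complex, by 0.29 ± 0.06 (SE, adjusted p = 0.0221). Ezhip, whose product inhibits PRC2, gave 6.68, 6.71 and 6.76 on the vitamin C arrays and 6.40, 5.99 and 5.99 on the untreated arrays. Untreated replicate 1 was nearest to the vitamin C arrays, and the rise was 0.59 ± 0.12 (SE, adjusted p = 0.0172). Scml2, a PRC1-associated gene of the germline, rose by 0.34 ± 0.06 (SE, adjusted p = 0.0145). The falls were those of Lcorl, related to the PRC2.1 gene Lcor (-0.42 ± 0.10 SE, adjusted p = 0.0337), and of Mecom, of the PRDM family (-0.32 ± 0.08 SE, adjusted p = 0.0347). The call of Lcorl was lost without any 1 of the 6 arrays (adjusted p up to 0.0992). Those of Ezhip (adjusted p up to 0.0574, without any array but untreated replicate 1), Tasor (0.0709, without any but vitamin C replicate 1) and Mecom (0.105, likewise) were each lost in 5 of the 6 cases. The call of Mecom held in only 5 of 15 alternatives, and averaging the probe sets of a gene also lost it. That of Scml2 was lost without vitamin C replicate 1 or untreated replicate 2 (adjusted p up to 0.0523).

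Of 13 genes for H3K27 and H3K9 demethylases, which remove these marks, 2 fell and none rose (15.4% called, against 13.2% of all genes). Kdm4c gave 7.64, 7.93 and 7.88 on the vitamin C arrays and 8.42, 8.30 and 8.39 on the untreated arrays (-0.55 ± 0.09 SE, adjusted p = 0.00901), and without moderation of the spread its adjusted p was 0.0553. Kdm4b fell (-0.27 ± 0.06 SE, adjusted p = 0.0328), but with any 1 array left out the adjusted p was 0.0588 to 0.0938.

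Genes that Polycomb and H3K9 methylation are known to silence were set beside the complexes. Of 40 measured developmental regulators that Polycomb covers in ES cells, 2 rose and none fell (5.0% called, against 13.2% of all genes). Their median difference was 0.04. Many of them were dimmer than Phf19, down to Tbx5 at 4.15 with vitamin C and 4.14 untreated. The share called among genes of like brightness was not computed, so 5.0% is not read as low. The endoderm factor gene Gata6 rose by 0.39 ± 0.07 (SE, adjusted p = 0.0124), and Gata3, of the trophectoderm, by 0.35 ± 0.09 (SE, adjusted p = 0.0437); leaving out any 1 array gave adjusted p values of 0.0576 to 0.123 for Gata3. Of 7 measured Magea and Mageb genes, 6 rose, where 5.75% of all genes did, and 1 (Mageb3, 0.01 ± 0.12 SE) did not pass. G9a is known to silence members of this family in ES cells. Their median difference was 1.09. This list too was compiled with results known. Magea5 averaged 7.09 with vitamin C and 3.74 untreated, Magea6 averaged 6.15 with vitamin C and 3.28 untreated, and Magea3 averaged 5.48 with vitamin C and 3.53 untreated. The untreated means of these 3 genes lay below the lower quartile of the arrays, so no size is given for their rises. Magea4 rose by 1.09 ± 0.13, Mageb4 by 0.90 ± 0.12 and Magea10 by 0.38 ± 0.08 (SE). The call of Magea10 was lost without vitamin C replicate 1 or untreated replicate 3 (adjusted p up to 0.0626). Close copies in this family make the separate values uncertain.

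**Figure D4:**
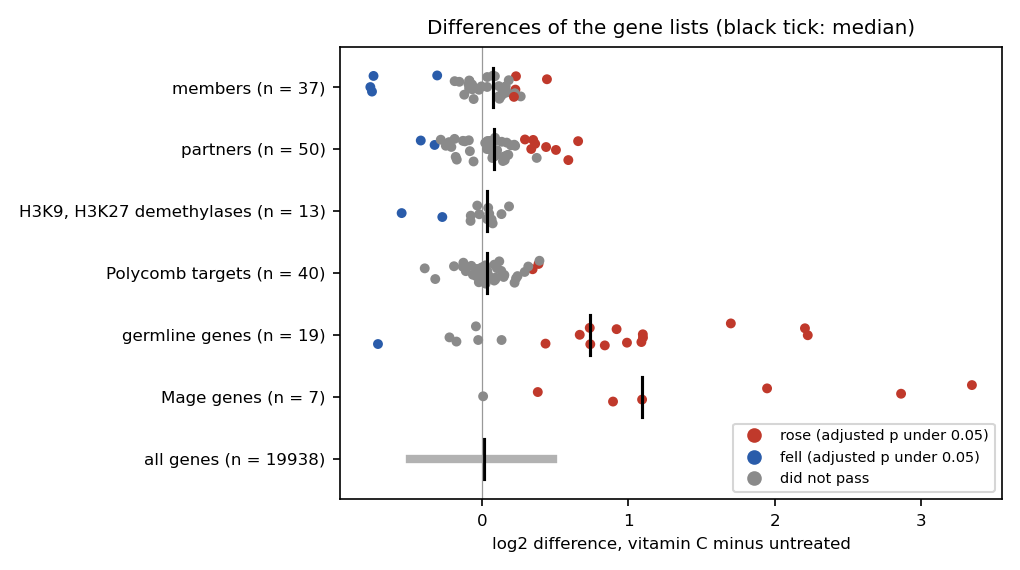
Log2 difference, vitamin C minus untreated, of every measured gene of each list; points are genes coloured by call, and black ticks are medians. The grey bar spans the middle 95% of all genes, from -0.49 to 0.48; the medians of the germline and Mage genes, 0.74 and 1.09, lie beyond it, and those of the repressor genes, their partners and the Polycomb targets are at 0.04 to 0.08.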

How the data were processed

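RNA amplified from whole transcripts was hybridised to 1 Affymetrix array per sample. The deposited values are log2 signals, a scale read from their range. RMA was used by the authors, per the submitters' processing notes; its version is not stated here. RMA in general forces arrays to 1 distribution, which hides a shift common to all genes and compresses dim differences. Array medians were 5.56 to 5.60 on the vitamin C arrays and 5.52 to 5.55 on the untreated arrays, a small offset that follows the groups. Precision depends on the 3 arrays per group.

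Of 35557 probe sets, 21789 carried 1 symbol, 1621 carried several and were left out, and 12147 are unnamed here. Groups came from the sample titles. All 19938 genes were fitted with limma 3.58.1 (R 4.3.3; lmFit, eBayes, two-sided, no covariate, Benjamini-Hochberg adjustment), after the code was tested on simulated data. Paralog responses within arrays were compared by exact permutation (SciPy 1.17.1), and figures were drawn with matplotlib 3.10.9. The text names all members, with each array's value for those called in limma, called under an alternative, or with groups that do not overlap and a difference of at least 0.2 in size, and every called gene of the partner, demethylase and target lists. The members and lists were chosen with earlier results of these data known.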

Additional observations from a re-analysis of the deposited data

How the results depend on the processing

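Across the 16 alternatives per gene, 537 values of the repressor genes kept their direction and side of the threshold, 37 lost the call, 8 gained it, none reversed, and 10 changed sign without a call. Ezh1 and Mga kept their calls in all 16. With the settings of the text limma called 2623 of all genes, with 4 repressor genes up and 4 down, 10 partners, 2 demethylases, 14 germline genes, 6 Mage genes and 2 Polycomb targets. Same-numbered arrays did not deviate together (correlations -0.02 to 0.05), and arrays with different numbers gave -0.07 to 0.05. Whether same-numbered cultures shared a day or batch is not stated, and these correlations cannot decide it. With the replicate number fitted as a block, 1723 genes were called, with 1 repressor gene up and 1 demethylase. A trended and robust spread called 4151 genes, 9 repressor genes up, 17 partners and 4 Polycomb targets. Without moderation 1545 genes, 1 demethylase and 1 Polycomb target were called. Quantile normalization and subtraction of the intensity trend each left 1 Polycomb target. Testing all probe sets called 1470, with 1 repressor gene up, 1 demethylase and 1 Polycomb target. At an adjusted p under 0.10, 4096 genes and 16 partners were called. With 1 array left out, which leaves fewer samples, the counts were 1483 to 1721 for all genes, 0 to 1 repressor genes up, 3 to 4 down, 4 to 8 partners, 1 demethylase, 14 germline genes, 5 to 6 Mage genes and 1 to 2 Polycomb targets. The cause of these shifts was not tested.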
